A study of Mus musculus with 2 samples.

Results

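The collagen genes were examined in urogenital ridges of E14.5 mouse embryos whose gonads had been removed, in a pool heterozygous (Misr2+/-) and a pool homozygous (Misr2-/-) for a deletion of Misr2. Members were the genes whose symbol is Col, a number, the letter a and a number, taken from probe sets with a single gene symbol in the platform annotation. There were 42 such genes with 82 probe sets among 18193 named genes on the array, and 30 of them were measured, against 11432 of all named genes (62.8%). A gene counted as measured when at least 1 probe set reached the median signal of its array in at least 1 pool, and it was represented by its brightest measured probe set. That median served as the floor, 116.5 in the heterozygous and 139.4 in the homozygous array. Signals under it were set to it.

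Misr2 (symbol Amhr2) codes for the type II receptor through which Müllerian inhibiting substance, a hormone of the fetal testis, removes the Müllerian duct in male embryos. Each pool held about 100 ridges of a mixed C57Bl/6 and 129SVEV background, scored for genotype with a YFP reporter, and each pool went onto 1 array. Both pools carry the deletion on at least 1 chromosome and there was no wild-type pool. With 1 array per genotype there was no replicate check and no test between the pools, and every value below describes these 2 arrays. Amhr2 itself read 1549.6 on the heterozygous array against 10.2 on the homozygous one, a drop of at least 13.3-fold relative to the array medians, in the direction of the labels.

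Collagens are matrix proteins in which 3 chains wind into a helix built on repeats with glycine at regular intervals. Fibrillar collagens form the tensile fibrils of connective tissue, fibril-associated collagens coat them, type IV collagen forms the sheet of basement membranes, and type VI collagen forms beaded filaments around cells. In the developing reproductive tract the ducts are epithelial tubes that rest on a basement membrane and are wrapped in collagen-producing mesenchyme, and matrix around the Müllerian duct is remodelled when the duct regresses.

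The windows around the annotated starts of 5 members are shown to set the letters of these genes beside their values, and no value below rests on them. Col3a1 and Col1a2 are fibrillar collagens of the mesenchyme, Col4a1 and Col4a2 are the basement membrane pair transcribed away from each other, and Col13a1 is the member with the largest difference between the pools. Sequences are from RefSeq (GRCm38.p6), run 5′ to 3′ on the strand of the gene from 250 bases before to 50 after the start, and capitals mark matches, on either strand, to TATAAA (the TATA box), to CCAAT (the CCAAT box) or to the letters GGCGCC.
Col3a1, chr1:45311288-45311587, plus strand: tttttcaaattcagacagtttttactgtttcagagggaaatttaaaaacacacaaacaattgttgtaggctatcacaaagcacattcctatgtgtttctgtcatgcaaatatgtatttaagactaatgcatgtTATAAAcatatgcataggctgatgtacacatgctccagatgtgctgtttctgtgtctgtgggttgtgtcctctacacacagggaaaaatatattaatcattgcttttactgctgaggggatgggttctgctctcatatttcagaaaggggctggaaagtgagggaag
Col1a2, chr6:4505368-4505667, plus strand: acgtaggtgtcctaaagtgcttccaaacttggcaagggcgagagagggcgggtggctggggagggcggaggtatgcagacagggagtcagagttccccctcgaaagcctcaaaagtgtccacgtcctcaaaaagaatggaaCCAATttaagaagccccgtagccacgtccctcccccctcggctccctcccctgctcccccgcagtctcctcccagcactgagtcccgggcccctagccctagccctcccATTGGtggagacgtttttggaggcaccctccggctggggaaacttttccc
Col4a1, chr8:11312777-11313076, minus strand: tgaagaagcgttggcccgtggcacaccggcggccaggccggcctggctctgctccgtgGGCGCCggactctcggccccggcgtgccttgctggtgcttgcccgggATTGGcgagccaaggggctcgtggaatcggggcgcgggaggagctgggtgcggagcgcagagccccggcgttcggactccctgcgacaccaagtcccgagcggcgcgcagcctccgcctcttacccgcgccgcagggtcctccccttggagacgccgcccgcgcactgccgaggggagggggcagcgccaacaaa
Col4a2, chr8:11312555-11312854, plus strand: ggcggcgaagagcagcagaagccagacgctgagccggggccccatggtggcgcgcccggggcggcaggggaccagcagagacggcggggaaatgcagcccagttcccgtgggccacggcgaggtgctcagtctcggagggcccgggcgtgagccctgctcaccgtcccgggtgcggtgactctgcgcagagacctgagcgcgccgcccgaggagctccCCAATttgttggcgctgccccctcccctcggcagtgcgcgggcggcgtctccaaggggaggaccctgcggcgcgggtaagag
Col13a1, chr10:61979059-61979358, minus strand: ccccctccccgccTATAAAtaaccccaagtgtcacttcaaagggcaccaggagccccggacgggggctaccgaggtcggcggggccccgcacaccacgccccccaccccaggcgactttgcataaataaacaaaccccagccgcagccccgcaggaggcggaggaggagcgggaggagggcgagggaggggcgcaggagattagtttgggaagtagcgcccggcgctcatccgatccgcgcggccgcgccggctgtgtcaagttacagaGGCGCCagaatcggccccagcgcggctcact

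The Col4a1 and Col4a2 windows share 78 bases, read on opposite strands. The windows of Col3a1 and Col13a1 hold the letters TATAAA, 117 and 237 bases before the annotated start. Those of Col1a2, Col4a1 and Col4a2 hold CCAAT or its complement ATTGG. The letters GGCGCC, known to be bound by Smad proteins of the BMP branch, are in the windows of Col4a1 and Col13a1. No matches overlap within the printed windows. Promoter windows were found for 25 of the 30 measured collagens, and a gene with several windows counted if any held the motif. TATAAA was in 2 of the 25, against 13.6% of all 32851 windows, CCAAT in 11 (44%) against 37.4%, and GGCGCC in 5 (20%) against 11.9%. The collagen shares are per gene and the background shares per window, so that they are not the same measure. The collagens with GGCGCC were Col13a1, Col16a1, Col4a1, Col4a4 and Col5a1, and their log2 differences ran from -0.68 to 0.39, the whole range of the measured collagens. A match describes the letters of the window only.

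As a family the collagens differed little between the pools. The log2 difference is the homozygous minus the heterozygous value, each relative to its array median. The median over the 30 measured collagens was -0.08, against 0.04 over all 11432 measured genes, with 20 members below and 10 above 0. Of all measured genes 4834 lay below and 6598 above 0. A total of 27 of the 30 lay within 0.3 of 0. The share of all measured genes within 0.3 was not computed, but their 5th and 95th percentiles were -0.30 and 0.44. Against the 25th and 75th percentiles of all measured genes (-0.09 and 0.17), 15 collagens lay below, 13 between and 2 above. At 1.5-fold, 1 member was lower (Col13a1), where 0.883% of all measured genes were, and 0 were higher, where 2.08% of all measured genes were. At 2-fold, 0 members were lower or higher, against 0.219% and 0.236% of all measured genes. These signs depend on the scale: the homozygous array was brighter by 0.26 at its median, so that as deposited the collagen median is 0.18, and against the 9 hybridisation spikes, which were brighter by another 0.39, it is -0.46. The distance between the collagen median and the median of all genes was -0.11 under each of these 3 scalings, which shift all genes alike and cannot move it. Under settings that can move it, the distance ran from -0.14 (median of probe sets) to -0.09 (floor at the 25th percentile).

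**Figure D1:**
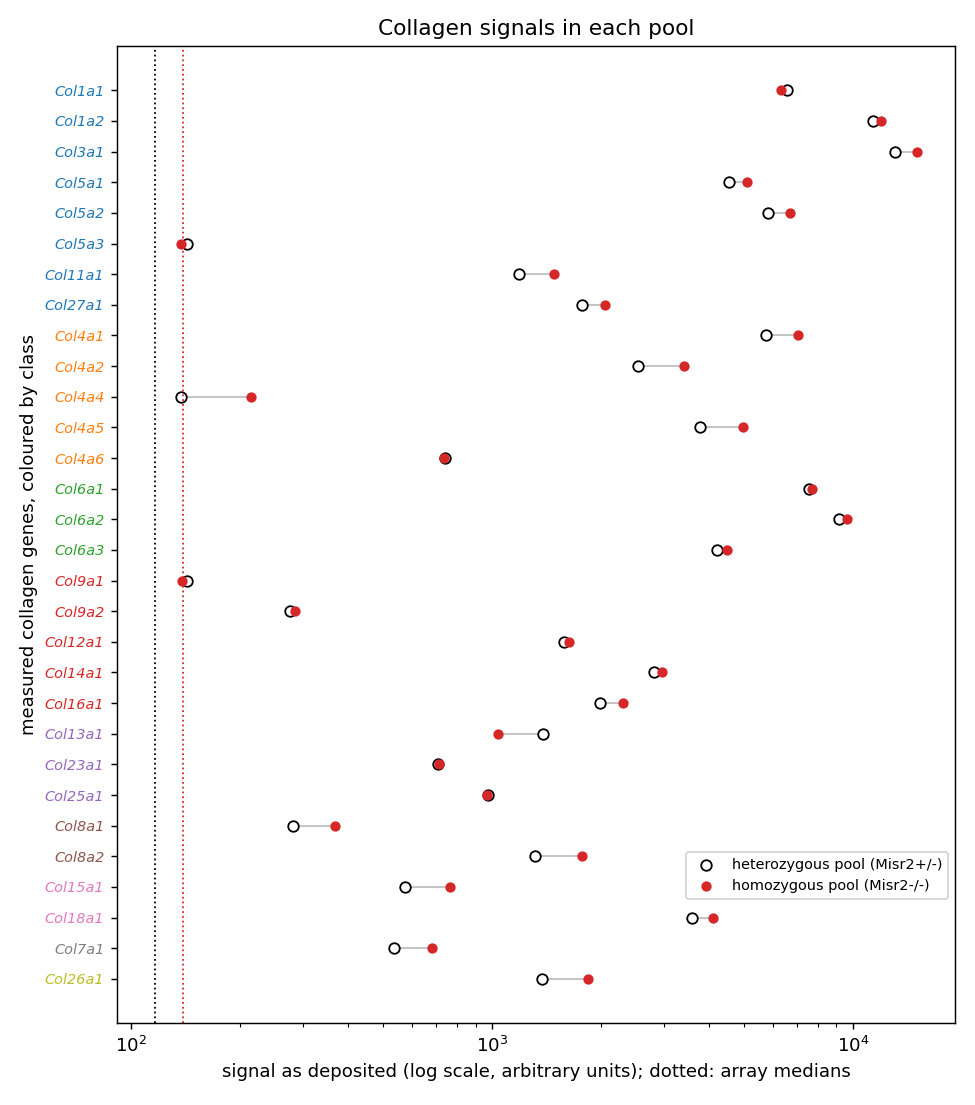
Signals as deposited (log axis, arbitrary units) of the brightest measured probe set of each of the 30 measured collagen genes, open circles for the heterozygous and red for the homozygous pool, with dotted lines at the array medians of 116.5 and 139.4. Pools lie close together for nearly all genes, Col13a1 is shifted to the left in the homozygous pool, and positions of different genes are not comparable because probe sets differ in brightness.

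Since a common shift of an array moves all genes alike, the sign of each member was read under the array medians and all 6 other scalings. It was negative under all of them for 6 of the 30 collagens, against 7.11% of all measured genes: Col13a1, Col1a1, Col9a1, Col5a3, Col4a6 and Col25a1. It was positive under all of them for 0 collagens, against 6.98% of all measured genes. Most of the scalings are constants, so that this reading comes close to a limit of -0.26 on the lower and 0.39 on the higher side, which are unequal distances from 0, and Col4a4 just missed the latter, with -0.0007 against the spikes. Of the 6, Col25a1, Col4a6, Col5a3, Col9a1 and Col1a1 lay between -0.0527 and -0.0107 as deposited, which is nearly level. For Col5a3 and Col9a1 this is with the homozygous signal at the floor. For the other 24 the sign turned under at least 1 scaling, and their values are given without a direction. The place of a gene among all measured genes is not moved by such a shift, and it is given as a percentile.

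Fibrillar collagens, which build the fibrils of mesenchyme, tendon and bone, had 8 of 11 members measured, with a median of -0.07 (0.19 as deposited, -0.46 against the spikes). Col1a1 encodes the main chain of type I collagen, the chief fibril of most connective tissues. Its signal was 6553.9 in heterozygous and 6318.6 in homozygous ridges, a log2 difference of -0.31 at percentile 4.64 of all measured genes. The dimmer probe set of Col1a1 went the other way, from 821.9 to 1086.4, a difference of 0.14, so that the lower value rests on 1 of its 2 probe sets. Col1a2, the partner chain of type I, had signals of 11349.1 and 11946.5 and a difference of -0.18. Its other probe sets gave -0.10 and -0.27, so that all 3 lay on the same side of 0, which as deposited turns for the brighter pair. The gap between the type I chains was 0.13, less than the SD of 0.23 between probe sets of the same gene.

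Col3a1, the fibril chain of elastic soft tissue, and Col5a1 and Col5a2, which make the type V collagen that starts and limits fibrils, were nearly level with the other genes. Col3a1 went from 13043.6 in heterozygous to 15083.8 in homozygous ridges, a difference of -0.05, with -0.06 for its other probe set. Col5a1 went from 4525.2 to 5088.5, a difference of -0.09, with -0.06 and -0.13 for its other probe sets. Col5a2, which neighbours Col3a1 on chromosome 1, went from 5803.5 to 6673.8, a difference of -0.06, with -0.19 for its other probe set. The gap between Col5a1 and Col5a2 was 0.03 and that between Col3a1 and Col5a2 was 0.01.

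The remaining measured fibrillar chains are best known from cartilage or are minor chains. Col11a1, a minor fibril chain of cartilage that is also made in soft tissue, had signals of 1187.7 and 1481, a difference of 0.06, and 0.38 for its other probe set. Col27a1 had signals of 1778.8 and 2061.7, a difference of -0.05, with 0.25 for its other probe set. Col5a3, a minor type V chain, was just above the floor in heterozygous ridges at 142.5 and just under it in homozygous ridges at 137.8. Relative to the array medians that is at least 1.22-fold lower. As deposited the log2 difference is -0.03 or lower, a bound with the homozygous signal at the floor. Col2a1, the main fibril of cartilage, was under both floors at 7.9 and 69.8, as were Col11a2 at 53.3 and 61.4 and Col24a1 at 60.5 and 80.9.

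Fibril-associated collagens had 5 of 9 members measured, all below 0, with a median of -0.22 (0.04 as deposited, -0.60 against the spikes). Col12a1 and Col14a1 encode proteins that sit on type I fibrils. Col12a1 went from 1585.5 to 1633.2, a difference of -0.22, with -0.23 for its other measured probe set. Col14a1, on chromosome 15 like Amhr2, went from 2804.6 to 2965, a difference of -0.18, with -0.26 for its other measured probe set. Col16a1, found near fibrils and basement membranes, went from 1986.6 to 2300.5, a difference of -0.05. The first pair stood at percentiles 9.69 and 12.9 of all measured genes, and Col16a1 at 32.8.

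Type IX collagen, which decorates cartilage fibrils, was dim. Col9a2 had signals of 276 and 284.4, a difference of -0.22. Col9a1 had 142.8 and 138.3, the latter under its floor, at least 1.23-fold lower relative to the array medians. As deposited its log2 difference is -0.03 or lower, likewise a bound. Col9a3 was under both floors on all 3 of its probe sets, the brightest at 49.3 and 100.4. Col19a1, Col20a1 and Col22a1 were also under both floors.

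Basement membrane collagens had 5 of 6 members measured, with 4 above 0 and a median of 0.14 (0.39 as deposited, -0.25 against the spikes, where it turns negative). With the median of each gene's probe sets in place of the brightest the class median is 0.0083, and of the 4 members above 0, Col4a1, Col4a4 and Col4a5 have another probe set below 0. Col4a1 and Col4a2, the chains of nearly all basement membranes, share the start region printed above. Col4a1 went from 5733.3 to 7037, a difference of 0.04, with -0.01 for its other probe set. Col4a2 went from 2530.4 to 3393.7, a difference of 0.16. Their gap of 0.13 was less than the SD between probe sets of the same gene, and they stood at percentiles 50.2 and 74.0.

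Col4a5 and Col4a6, a further pair on the X chromosome that is used in kidney, smooth muscle and some epithelia, did not match. Col4a5 had signals of 3772.5 and 4957.2, a difference of 0.14, but its dimmer probe set went from 1438 to 1387.8, a difference of -0.31. Col4a6 had signals of 742.1 and 734.9, a difference of -0.27, with -0.30 for its other probe set, and it was lower in the homozygous pool under all scalings. The gap between the chains was 0.41 with the brightest probe sets, whereas the dimmer probe set of Col4a5 lay next to Col4a6. As a check on the X chromosome, Xist, the transcript of the inactive X, was under the floor on all 3 probe sets in both pools, and Eif2s3y, a Y-linked gene, had signals of 1199.7 and 1541.9.

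Col4a3 and Col4a4, which join Col4a5 in the network of the kidney filter, were dim. Col4a4, above both floors, had signals of 137.3 and 214.6, a difference of 0.39, the highest of all measured collagens, while another of its probe sets went from 166.2 to 154, a difference of -0.37. Col4a3, its head-to-head neighbour, was under both floors, at 27.6 and 59 on its brighter probe set. The opposite values of the Col4a4 probe sets leave its sign unsettled.

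Type VI collagen, the beaded filament of mesenchyme and muscle, had its 3 common chains measured, and they lay close together. Col6a1 had signals of 7535.9 and 7681, a difference of -0.23. Col6a2, next to Col6a1 on chromosome 10, had 9161 and 9650.3, a difference of -0.18, with -0.16 for its other probe set. Col6a3, on chromosome 1, had 4210 and 4476.9, a difference of -0.17. The chains differed from each other by 0.01 to 0.06, less than the SD between probe sets of the same gene, and stood at percentiles 8.70 to 13.9 of all measured genes. Their median was -0.18 (0.08 as deposited, -0.57 against the spikes). Col6a4 and Col6a5 were under both floors.

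Transmembrane collagens, which span the plasma membrane with their helix outside the cell, had 3 of 4 members measured, all below 0, with a median of -0.27 (-0.01 as deposited, -0.66 against the spikes). Col13a1, a component of cell-matrix adhesions and of the neuromuscular junction, had the lowest value of all collagens. It read 1386.6 in heterozygous and 1037.6 in homozygous ridges, 1.60-fold lower, a log2 difference of -0.68. It stood at percentile 0.621 of all measured genes, both signals were well above the floor, and as deposited the difference was -0.42, under 1.5-fold. Col13a1 has 1 probe set on the array, so that its value has no second probe set beside it.

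The other transmembrane members differed less. Col25a1, a collagen of neurons and developing muscle, had signals of 976.2 and 969, a difference of -0.27, which was negative under all scalings, while its second probe set was under both floors. Col23a1 had signals of 708.1 and 711.6, a difference of -0.25, with -0.28 and -0.11 for its other probe sets. Col17a1, the hemidesmosome collagen of surface epithelium, was under both floors at 61.5 and 94.4.

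**Figure D2:**
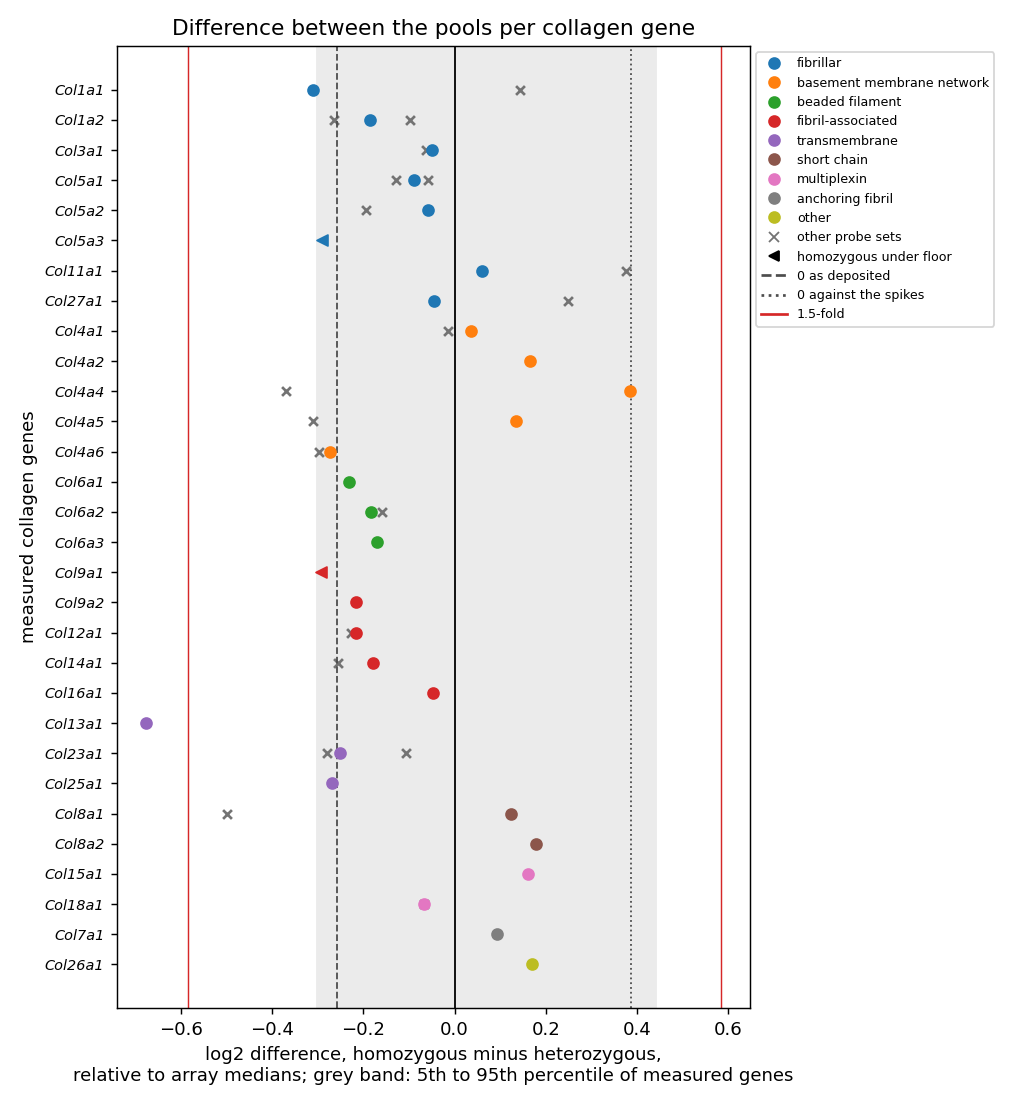
Log2 difference (homozygous minus heterozygous, relative to array medians) of each of the 30 measured collagen genes, coloured by class, with grey crosses for other measured probe sets, triangles for values bounded by the floor and a grey band from the 5th to the 95th percentile of all measured genes (-0.30 to 0.44). Dashed and dotted lines mark where 0 lies as deposited (-0.26) and against the spikes (0.39), so that values between 0 and the dashed line turn positive as deposited and values between 0 and the dotted line turn negative against the spikes; Col13a1 is the only gene past the red line of 1.5-fold.

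Members of the small classes lay between -0.07 and 0.18. Col8a1 and Col8a2, chains of the short type VIII collagen of vessel walls, had differences of 0.12 and 0.18, with signals from 280.9 to 366.3 and from 1312.5 to 1776.1. A dimmer probe set of Col8a1 went from 164.7 to 122.2, under the homozygous floor, a difference of -0.50 or lower. Col15a1 and Col18a1, multiplexins of basement membranes, had differences of 0.16 (572.4 to 765.2) and -0.07 (3585.2 to 4095.3, with -0.07 for the other probe set). Col7a1, the anchoring fibril below surface epithelia, went from 535.1 to 683.4, a difference of 0.09. Col26a1, a short collagen with an EMI domain, went from 1373.3 to 1848.7, a difference of 0.17. Every one of these positive values turns negative against the spikes, and the negative value of Col18a1 turns positive as deposited. Col10a1, the collagen of hypertrophic cartilage, was under both floors at 2.5 and 9.3.

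Differences between classes within the arrays are not moved by a common shift. The basement membrane median lay 0.31 above the median of the other collagens, and the transmembrane, fibril-associated and beaded filament medians lay 0.21, 0.16 and 0.13 below it, as signed differences of -0.21, -0.16 and -0.13. The fibrillar median differed from the other collagens by 0.05. Of the 11 alternative settings, 4 scale by a constant and cannot move these values. Over the other 7 the basement membrane value ran from 0.18 to 0.30 and the transmembrane value from -0.24 to -0.18. The beaded filament value ran from -0.18 to -0.08 over the 6 of these with 3 measured members. A floor lowered to the 25th percentile lets in the dimmest chains, and there the fibril-associated value was 0.00 and the fibrillar value -0.12. These classes hold 3 to 8 measured genes, and their differences have no test.

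**Figure D3:**
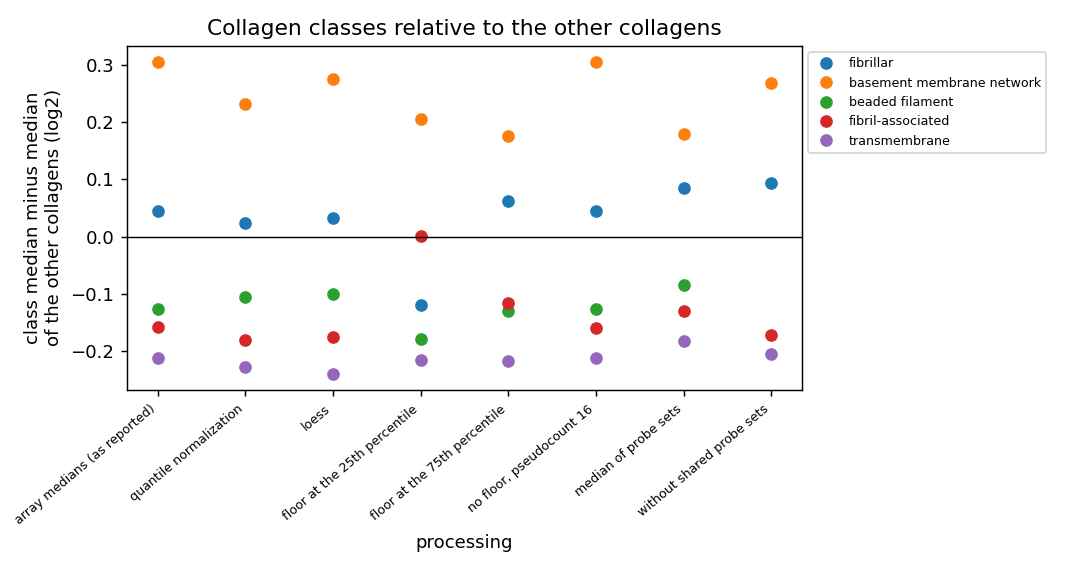
Median log2 difference of each collagen class with at least 3 measured members minus the median of the other measured collagens, for the array median scaling and the 7 alternative settings that can move it. Basement membrane collagens lie above 0 (0.18 to 0.31) and transmembrane collagens below 0 (-0.24 to -0.18) in the settings shown, and the fibrillar and fibril-associated classes change places under a floor at the 25th percentile.

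Probe sets of the same collagen gave a further view of the error. Of 17 collagens with several measured probe sets, 11 had all of them within 0.2. By a separate count, 6 had them on both sides of 0, namely Col1a1, Col27a1, Col4a1, Col4a4, Col4a5 and Col8a1. Col4a1, with a range of 0.05, is in both counts. Col11a1, with a range of 0.32 on 1 side of 0, is in neither. The shares of all genes for these counts were not computed, so that the counts have no background. The widest ranges were 0.75 for Col4a4 and 0.62 for Col8a1, both dim genes. The SD between the brightest pair of probe sets was 0.22 over these 17 genes and 0.23 over all 5264 genes with such a pair. It leaves out variation between pools.

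Of the 42 members, 12 were under both floors on all of their 23 probe sets, with signals of at most 64.9 (heterozygous) and 100.4 (homozygous). Among these, Col2a1, Col10a1, Col11a2 and Col9a3 are collagens of cartilage. Of the cartilage markers that are no collagens, 8 of 12 were also under both floors, among them Acan (54.9 and 49.9), the cartilage proteoglycan, Matn1 (20.2 and 8.3) and Comp (18.3 and 49). The measured ones were Hapln1, Sox6, Epyc and Sox9. Hapln1, Epyc and Sox6 had log2 differences of 0.19, 0.24 and 0.00 (-0.20, -0.14 and -0.39 against the spikes). Other probe sets of Hapln1 gave -0.10 to 0.11. Sox9 was 1.55-fold lower in the homozygous pool (a log2 difference of -0.38 as deposited, under 1.5-fold). The same Sox9 value is listed again among the fetal testis markers below. The nearest members to the floor were Col5a3 and Col9a1, whose higher signal was 1.22 and 1.23 times its array median, and among probe sets just outside it those of Col26a1 and Col25a1 reached 0.837 and 0.818 times.

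Genes that help collagens to mature were set beside them. Here too values from -0.26 to 0 turn positive as deposited, and values from 0 to 0.39 turn negative against the spikes. Of the 40 measured partner genes 19 had several measured probe sets, and for 12 of the 19 these lay on both sides of 0. The share of all genes with such probe sets was not computed. As background for the counts below 0 in these lists, 4834 of all 11432 measured genes lay below 0. Of 16 measured enzymes and chaperones of collagen hydroxylation, folding and glycosylation, 13 lay below 0 and the list median was -0.06 (0.20 as deposited, -0.45 against the spikes). Serpinh1, the collagen chaperone HSP47, went from 8161.6 to 9674.5, a difference of -0.01. P4hb, a subunit of prolyl 4-hydroxylase, differed by -0.04, P4ha2, a catalytic subunit, by -0.29 and Plod2, a lysyl hydroxylase, by -0.26, with 0.09 for its other probe set. P3h4, which belongs to a complex for lysine hydroxylation of collagen, went from 695.4 to 1289.4 on its 1 probe set, 1.55-fold higher in the homozygous pool and positive against the spikes at 0.25, where it is under 1.5-fold. It was the only member of this list past 1.5-fold.

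Genes of procollagen export and cleavage had 10 measured members, 7 below 0, with a median of -0.18 (0.08 as deposited, -0.56 against the spikes). Creb3l1, a transcription factor that activates collagen genes in bone, had signals of 765.6 and 700, a difference of -0.39, and was negative as deposited at -0.13. Sec24d, a coat protein of vesicles that carry procollagen, differed by -0.31, and Mia3, which loads procollagen at the endoplasmic reticulum, by -0.22 with probe sets on both sides of 0. Bmp1, the protease that removes the C-terminal propeptide, differed by -0.18 on its brighter and 0.31 on its other measured probe set. Pcolce, its enhancer, differed by 0.05. No member reached 1.5-fold.

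Cross-linking and fibril assembly genes had 9 measured members, 6 below 0, with a median of -0.04 (0.22 as deposited, -0.43 against the spikes). Lox, the lysyl oxidase that cross-links collagen, had signals of 1900.1 and 2291, a difference of 0.01, with -0.15 for its other probe set. Sparc, a collagen-binding matrix protein, differed by -0.16, with 0.04 for its other probe set, and Tgm2, a transglutaminase, by -0.22, with -0.10 to 0.13 for its other probe sets. Dpt (dermatopontin), a small protein that promotes fibril formation, went from 214.6 to 414.8 on its 1 measured probe set, 1.62-fold higher in the homozygous pool and positive against the spikes at 0.31, where it is under 1.5-fold. Collagen receptors had 5 measured members with a median of -0.0026 (0.26 as deposited, -0.39 against the spikes). The median of probe sets gives 0.17 for this list, and leaving out probe sets that may match several transcripts gives 0.16. Ddr2, a receptor kinase for fibrillar collagens, differed by -0.21 on its brighter and 0.33 on its other measured probe set. Itga1, a collagen-binding integrin chain, differed by 0.28 and Mrc2, which takes up collagen fragments, by 0.23.

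**Figure D4:**
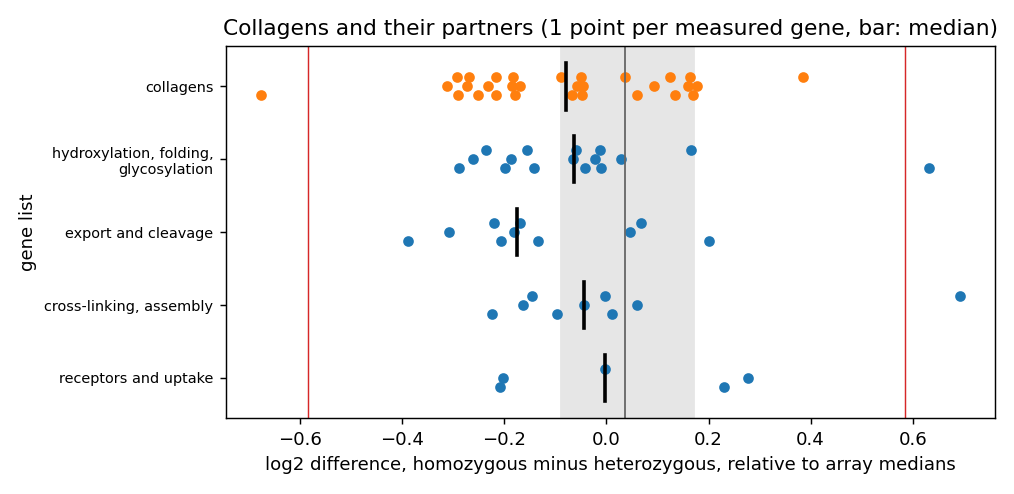
Log2 difference (homozygous minus heterozygous, relative to array medians) of the 30 measured collagens and of the measured members of 4 lists of partner genes, with black bars at the medians, a grey band from the 25th to the 75th percentile of all measured genes (-0.09 to 0.17), a grey line at their median of 0.04 and red lines at 1.5-fold. List medians run from -0.18 to -0.0026 and turn positive as deposited, and the points past 1.5-fold are Col13a1 on the lower and P3h4 and Dpt on the higher side.

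In bulk RNA, fewer cells of a type and less RNA per cell cannot be told apart. Summed signals below take in every listed marker on the array, also those under both floors, and not the measured ones alone. Of the labelled tissue's markers 13 of 14 were measured, including Wt1 (3356.9 and 4640.4) and Hoxa9, with a summed signal of 15454.3 and 20923.2. Hoxa11 and Wnt7a were 1.75-fold and 1.57-fold higher and Osr1 2.20-fold lower in the homozygous pool. Against the spikes Hoxa11 and Wnt7a had log2 differences of 0.42 and 0.26, under 1.5-fold, and the other probe set of Wnt7a gave 0.22. Germ cell markers, 5 of 7 measured, summed to 1334.2 and 724.7. Relative to the array medians Dazl, Dppa3 and Dppa5a were lower by factors of 2.28, 2.18 and 2.09. As deposited their log2 differences are -0.93, -0.87 and -0.81, past 1.5-fold and under 2-fold. The other probe set of Dazl gave -0.60 relative to the array medians. Fetal testis markers, 7 of 9 measured, summed to 2212.8 and 1848.8, with Amh under both floors at 19 and 5.5, and Defb19 (at least 1.58-fold), Sox9 (1.55-fold) and Cyp17a1 (1.52-fold) lower relative to the array medians. As deposited Sox9 and Cyp17a1 have log2 differences of -0.38 and -0.34, both under 1.5-fold. Defb19, with signals of 183.9 and 119.3, has -0.40 or lower as deposited. That is a bound, with its homozygous signal at the floor, and it cannot tell whether 1.5-fold was reached. Bone markers, 2 of 5 measured, summed to 517.3 and 351.7. Ibsp, Dmp1 and Phex were under both floors, so that most of the sum came from Sp7 (273.9 and 104.1) and Alpl (207.6 and 193.8). Sp7 was at least 2.35-fold lower relative to the array medians. As deposited the log2 difference of Sp7 is -0.97 or lower, a bound with its homozygous signal at the floor. Macrophage markers, 8 of 8 measured, summed to 8809.9 and 9618.6 as deposited. Their median log2 difference was -0.14 relative to the array medians and 0.12 as deposited. Relative to the array medians Cx3cr1 was 1.83-fold lower on its brighter probe set. As deposited the brighter probe set of Cx3cr1 gave a log2 difference of -0.62. Its other probe set gave -0.31 relative to the array medians. With the floor at the 75th percentile, under which its homozygous signal falls, the brighter one gave -0.51 or lower. That is a bound, which cannot tell whether 1.5-fold was reached. Endothelial markers, 8 of 8 measured, summed to 6062.4 and 7380.6, surface epithelial markers, 7 of 11, to 12860.4 and 16341.5, smooth muscle markers, 5 of 8, to 7793.7 and 9815.9, and nerve and Schwann cell markers, 2 of 5, to 1603.8 and 1660.4. Skeletal muscle markers, 2 of 8 measured, summed to 384.7 and 647.8 over all 8. Summed signals are as deposited, where the homozygous array was brighter by 0.26 log2 at its median. Their part in the collagen values was not tested.

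Among the 739 probe sets in the authors' deposited table, none of them below 2-fold, were 0 of the 82 collagen probe sets. Of all probe sets with a single gene symbol 1.54% are listed there, so that a count of 0 is near the background.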

How the data were processed

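Total RNA of 2 pools was hybridised to 1 single-colour Affymetrix array each. Values are linear intensities as the authors deposited them. The tools GCOS and MAS5 appear, with no version or role, in the labels per the submitters' processing notes. The authors' deposited table of fold changes holds intensities on another scale and a signed fold, treated as a score. No source used here gives its filter or the scaling of the intensities, and no detection calls were used. Of 45101 probe sets 64 controls were left out.

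Log2 differences were computed in Python 3.11.15 with numpy 2.4.6 and pandas 2.3.3 relative to array medians, with signals floored at the median. The SD between probe sets is that of the gap between a gene's brightest pair of measured probe sets, over the square root of 2. The number of arrays limits the precision, and no p-values were computed. A fold was called at 1.5. The computation was tested on simulated data. Scaling, floor, probe set choice and threshold were varied. Every collagen was described, and of other lists the members past 1.5-fold and up to 3 with the largest differences. Other list members, named for their roles, were chosen after their values were seen. The members and lists were chosen with earlier results of these data known. Listed genes with no probe set of a single symbol were not analysed here. No source used here names the array's genome build, and coordinates are those of the RefSeq table only.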

Additional observations from a re-analysis of the deposited data

How the results depend on the processing

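Scaling by a constant moved every collagen value alike. As deposited the collagen median was 0.18 and the class medians were 0.19 (fibrillar), 0.39 (basement membrane), 0.075 (beaded filament), 0.043 (fibril-associated) and -0.011 (transmembrane), with partner list medians of 0.20 (hydroxylation, folding and glycosylation), 0.084 (export and cleavage), 0.22 (cross-linking and assembly) and 0.26 (receptors). Scaled to the hybridisation spikes the collagen median was -0.46, the class medians in the same order were -0.46, -0.25, -0.57, -0.60 and -0.66, and the list medians -0.45, -0.56, -0.43 and -0.39. Collagens at least 1.5-fold higher numbered 1 as deposited, 3 under a floor lowered to the 25th percentile and 1 at the lower threshold tried, against 0; the shares of all measured genes were 10.1%, 5.46% and 10.3%. Collagens at least 1.5-fold lower numbered 0 as deposited, 10 against the spikes and 0 at 2-fold, against 1. The share of all measured genes past 1.5-fold lower was 0.341% as deposited and 11.1% against the spikes, where 0.271% were higher. Over the other 9 alternatives the collagen median ran from -0.12 to -0.047, the basement membrane median from 0.0083 to 0.15, the fibril-associated from -0.25 to -0.047, the receptor list from -0.10 to 0.17 and the cross-linking list from -0.08 to -0.0033. Under the 75th percentile, quantile, loess and authors' table scalings, and without a floor or with the floor at either percentile, each measured collagen moved by less than the SD of 0.23 between probe sets. With the median of probe sets 2 of 30 moved by more. Col13a1 ran from -1.06 to -0.42 over 11 alternatives and was past 1.5-fold in 10 of them, the exception being the values as deposited. Several of the 10 could not move it, since it has 1 bright probe set. These were the floors at either percentile, the median of probe sets and leaving out probe sets that may match several transcripts. All of these gave -0.68. Why the scalings differ was not tested. No paired analysis was possible because each genotype has 1 array. Dim chains near the floor are limited by their signal over background.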

Other observations

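Collagen probe sets under both floors also differed in their raw signals, and they are given here as values with no fold. Col2a1 was at 7.9 (heterozygous) and 69.8 (homozygous) on its only probe set. The third probe set of Col14a1 was at 88.5 and 9.4. There were 6 collagen probe sets at least 2-fold apart on the scale of the authors' deposited table, all 6 under both floors, and none is listed there.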
